A study of Mus musculus with 8 samples.

Results

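The miR-29 family was followed in C3H10T1/2 cells, a mouse mesenchymal line that answers hedgehog proteins. Its members were taken as the 3 mature forms mmu-miR-29a-3p, mmu-miR-29b-3p and mmu-miR-29c-3p, chosen by name among the 611 mouse miRNAs of a one-colour Agilent miRNA array, with 2 probes and 20 spots per member. Cells of the WT group were kept for 48 h with 750 nM of wild type IhhN, the signalling N-terminal part of Indian hedgehog. Those of the MT group were kept for 48 h with 750 nM of E95K mutant IhhN, which carries an amino acid change found in brachydactyly type A1. Both were recombinant human proteins made in bacteria, and the control group received no protein. All 3 groups share the cell line, so the data describe 1 line at 1 time. Each group had 2 RNA samples (n = 2). Both RNA samples of the WT group were hybridized on 2 arrays each, which were averaged, and each RNA sample of the MT and control groups on 1 array.

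miRNAs are short RNAs that guide a silencing complex to messenger RNAs, mainly by pairing of their seed, bases 2 to 8. The miR-29 family is known for targeting messenger RNAs of collagens and of other matrix proteins such as elastin and fibrillin, and it is studied in fibrosis and in osteoblasts, where matrix output changes as cells mature. Indian hedgehog controls cartilage growth and bone formation, and a question put to these arrays is how the miRNAs of mesenchymal cells differ between the 2 proteins and uninduced cells.

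The mature sequences are shown because the members have the same seed and differ only downstream of it. They are RefSeq sequences, with the seed in capitals and the remaining bases in lower case.
miR-29a-3p: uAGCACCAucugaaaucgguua
miR-29b-3p: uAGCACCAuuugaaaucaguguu
miR-29c-3p: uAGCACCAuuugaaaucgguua
Counted from 1 at the 5′ end, miR-29a-3p and miR-29c-3p differ by 1 substitution, C10U. From miR-29b-3p to miR-29c-3p there are 3 substitutions over the 22 bases they share, A18G, G21U and U22A, and miR-29b-3p has 1 base more. Of the 611 mouse miRNA names on the array, 476 had a mature sequence in the RefSeq table, and 0 miRNAs other than the members had the seed AGCACCA. The probe sequences were not used here. Cross-hybridization between members that differ by 1 base was not tested.

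The members come from 2 pairs of neighbouring genes (build GRCm38.p6). Mir29a lies at chr6:31062660-31062747 and Mir29b-1 at chr6:31063023-31063093, both on the minus strand and 275 bases apart. Mir29b-2 lies at chr1:195037040-195037120 and Mir29c at chr1:195037547-195037634, both on the plus strand and 426 bases apart, and the annotation places both within the long non-coding RNA gene A330023F24Rik. The same miR-29b-3p is made from Mir29b-1 and Mir29b-2, so its signal is the sum of both genes. miR-29a-3p reports only on the chromosome 6 pair and miR-29c-3p only on the chromosome 1 pair.

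Between 104 and 150 mouse miRNAs were detected per array, and the 142 that every array of some group detected were tested. The first array of WT replicate 1 and the array of MT replicate 1 had the widest negative controls (SD of 6.63 and 5.61 intensity units, against 2.91 to 3.76 on the other 6) and the fewest miRNAs detected, 104 and 106. All 8 arrays lay on 1 slide: the WT arrays filled row 1, with replicate 1 on the left and replicate 2 on the right, while the MT arrays lay on the left and the control arrays on the right of row 2. The labelled cell type was checked with miRNAs usual in mesenchymal cells. miR-21, miR-199a-3p, miR-214 and miR-143 were detected on all 8 arrays and miR-145 on 7, whereas markers of liver (miR-122), neurons (miR-124), blood cells (miR-142-3p, miR-223), epithelium (miR-200b, miR-200c) and muscle (miR-133a) were detected on 0 arrays. No source names separate cultures behind the 2 RNA samples of a group, so p-values measure the spread between these samples only. In bulk RNA, less miRNA per cell and fewer cells that express it cannot be told apart.

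All 3 members were measured in every group, and they differed in how they stood against the control group. miR-29b-3p was at 48.0% of its control level in the WT group and 54.0% in the MT group, miR-29c-3p was at 76.9% and 77.8%, and for miR-29a-3p, at 109% and 99.3%, the groups overlapped. None of these differences passed an adjusted p of 0.05 over the 142 miRNAs tested, nor did any other miRNA. Levels below are log2 of the intensity after each array was brought to a common 75th percentile, taken over probes that all arrays detected, for the brighter probe of each member. A level is compared only within a probe, since probes differ in brightness.

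**Figure D1:**
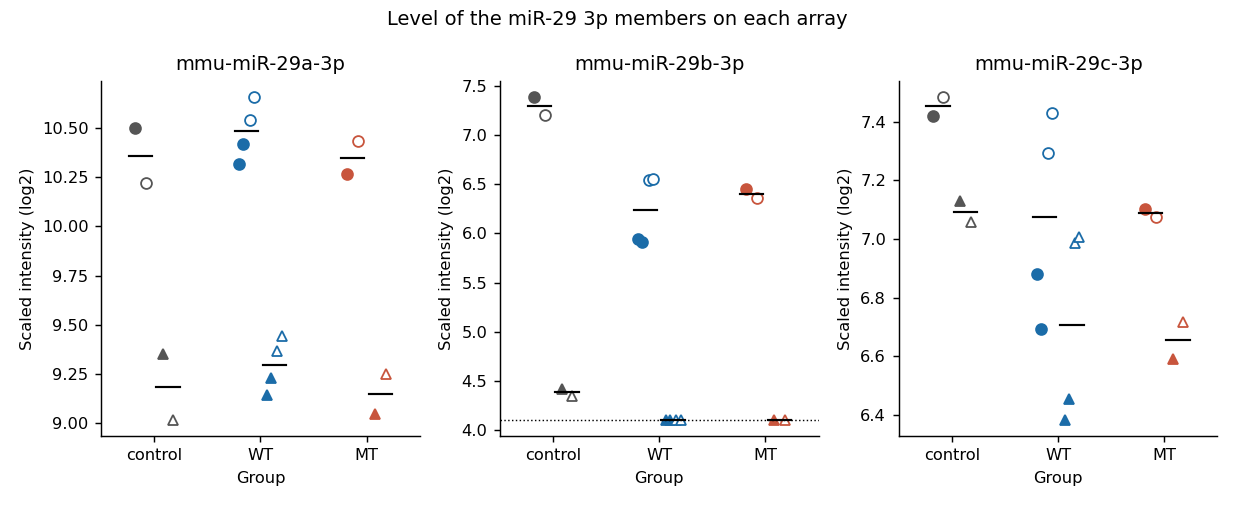
Scaled intensity (log2, a separate axis for each member) on all 8 arrays by group. Circles are the brighter and triangles the dimmer probe, filled symbols replicate 1 and open symbols replicate 2, black lines the mean over RNA samples, and the dotted line the floor at 4.11. For the brighter probe of miR-29b-3p, the control arrays at 7.39 and 7.21 lie above every WT and MT array, while the groups overlap for miR-29a-3p.

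miR-29b-3p had intensities of 56.8 and 53.7 on the arrays of WT replicate 1, 99.8 and 78.4 on those of WT replicate 2, 73.1 and 67.0 in MT replicates 1 and 2, and 248 and 169 in control replicates 1 and 2. On the scaled log2 level these were 5.93 and 6.55 for the WT replicates, 6.45 and 6.36 for the MT replicates, and 7.39 and 7.21 for the control replicates. Both control samples were above all 4 induced samples, and WT replicate 1 was the lowest of the 6. All spots of this probe were well above background on every array. The technical arrays of a WT sample differed by at most 0.027 in level, far less than the 0.62 between the WT replicates.

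The mean level of miR-29b-3p was 6.24 ± 0.44 (SD, n = 2) in the WT group, 6.41 ± 0.064 (SD, n = 2) in the MT group and 7.30 ± 0.13 (SD, n = 2) in the control group. The difference of WT against control was -1.06 on the log2 scale (SE 0.23, 95% interval -1.59 to -0.53), 48.0% of the control level. limma gave an unadjusted p of 0.0023 and an adjusted p of 0.14. The difference of MT against control was -0.89 (SE 0.23, 95% interval -1.42 to -0.36), 54.0% of the control level, with an unadjusted p of 0.0056 and an adjusted p of 0.062. Counted from the lowest of the 142 differences, miR-29b-3p stood at rank 2 in WT against control and at rank 4 in MT against control. The side of the threshold depended on the fit. The adjusted p of WT against control was 0.039 when only these groups were fitted, where 0.704% of the 142 miRNAs passed. Leaving out either MT sample repeats this same calculation, since a single MT sample adds nothing to the spread. That of MT against control was 0.032 over the 103 miRNAs detected on all 8 arrays and 0.047 with RNA sample as a random block. Other miRNAs passed in these fits too: the share of all miRNAs tested was 28.2% in the former and 7.75% in the latter. Without MT replicate 2 the difference was -0.84.

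For WT against control, 0% of the 142 miRNAs passed the adjusted p, 10.6% were lower with an unadjusted p under 0.05, and 2.11% were more than 2-fold lower, miR-29b-3p among each of the last 2 sets. For MT against control, the shares were 0%, 12.7% and 0%. Of the 3 members, miR-29b-3p alone had an unadjusted p under 0.05, and it had one in both comparisons. Both comparisons use the same 2 control samples and are not independent of each other.

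miR-29c-3p, which shares the chromosome 1 gene pair with 1 source of miR-29b-3p, had intensities of 109 and 92.1 on the first pair of WT arrays, 167 and 144 on the second, 115 and 110 for the MT replicates, and 254 and 205 for the control replicates. Its scaled log2 levels were 6.79 and 7.36 in the WT replicates, 7.10 and 7.08 in the MT replicates, and 7.42 and 7.48 in the control replicates. The control samples were again the highest, but WT replicate 2 was close below them and WT replicate 1 far below. The group means were 7.07 ± 0.41 (SD, n = 2) for WT, 7.09 ± 0.019 (SD, n = 2) for MT and 7.45 ± 0.045 (SD, n = 2) for control. The differences from control were -0.38 for WT (95% interval -0.88 to 0.12, limma adjusted p = 0.24) and -0.36 for MT (95% interval -0.86 to 0.14, limma adjusted p = 0.22). Both intervals include 0. Single WT samples decided the first value, which was -0.09 without WT replicate 1 and -0.67 without WT replicate 2.

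miR-29a-3p was the brightest probe of the family, with scaled log2 levels of 10.37 and 10.60 in the WT replicates, 10.27 and 10.43 in the MT replicates, and 10.50 and 10.22 in the control replicates. Control replicate 1 lay among the induced samples and control replicate 2 below all of them, so the groups overlapped. Means were 10.48 ± 0.16, 10.35 ± 0.12 and 10.36 ± 0.20 (SD, n = 2) in the WT, MT and control groups. The difference from control was 0.12 for WT (95% interval -0.29 to 0.54, limma adjusted p = 0.65) and -0.01 for MT (95% interval -0.43 to 0.41, limma adjusted p = 0.99). The sign of these small values depended on the scaling. With the 75th percentile over all mouse probes the WT value turned to -0.23, while the MT value kept its sign at -0.72. The median of all miRNAs was then -0.19 in WT and -0.52 in MT. With quantile normalization the MT value turned to 0.028.

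miR-29b-3p and miR-29c-3p, but not miR-29a-3p, had samples that did not overlap with the control samples in both comparisons. With 2 samples against 2 this is common: 25.4% of all miRNAs tested lay below without overlap in WT against control and 26.8% in MT against control. The median difference of all 142 miRNAs was 0.12 in WT and 0.13 in MT. Relative to it, miR-29b-3p was at -1.17 and -1.02, miR-29c-3p at -0.49 and -0.49, and miR-29a-3p at 0.0080 and -0.14.

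**Figure D2:**
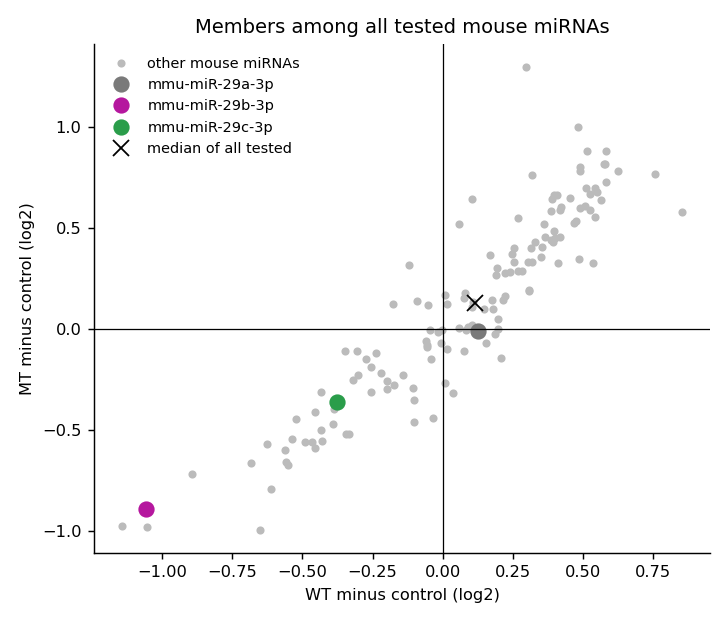
Difference from the control group on the log2 scale for the 142 miRNAs tested, with WT on the x axis and MT on the y axis. Both axes use the same control samples, which alone draws points toward the diagonal. miR-29b-3p, at -1.06 and -0.89, lies at the low edge of the cloud, miR-29c-3p at -0.38 and -0.36, and miR-29a-3p near the median of all miRNAs.

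The WT and MT groups were compared to ask whether wild type and E95K mutant IhhN left different levels of the family. WT against MT gave 0.13 for miR-29a-3p (95% interval -0.28 to 0.55), -0.17 for miR-29b-3p (-0.70 to 0.36) and -0.02 for miR-29c-3p (-0.51 to 0.48). limma gave adjusted p-values of 0.99, 0.99 and 1. The WT and MT samples overlapped for every member. In this comparison 0% of the 142 miRNAs passed the adjusted p, and 0% had an unadjusted p under 0.05. The interval of miR-29b-3p leaves room for a WT level between 0.61 and 1.29 times the MT level.

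Each member was then read at the level of its single probes, of which 251 on the array could be tested. The probes of miR-29a-3p gave 0.12 and 0.11 for WT against control and -0.01 and -0.04 for MT against control. Those of miR-29c-3p gave -0.38 and -0.38 for WT and -0.36 and -0.44 for MT, brighter probe first. The probes of a member therefore differed from each other by less than their standard errors of 0.18 to 0.21. None had an adjusted p under 0.05 over the 251 probes. In that fit the brighter probe of miR-29b-3p had limma adjusted p-values of 0.16 for WT and 0.073 for MT.

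The dimmer probe of miR-29b-3p had intensities of 31.8 and 23.4 in the control replicates, where 100% and 80% of its spots were well above background. On the 4 WT arrays it had 11.4, 9.06, 11.3 and 9.91, and on the 2 MT arrays 7.99 and 7.98, with 0% of spots well above background. The control arrays were brighter as a whole. Their 75th percentiles used for scaling were 785 and 606, against 432 to 565 on the WT and MT arrays. In these unscaled values, the dimmer probe was measured on both control arrays and not well above background on any WT or MT array. Its mean scaled level in control was 4.39, while the lowest signal that counted as detected averaged 4.56 over the WT samples and 4.69 over the MT samples, so no fold was derived from this probe. Those means rest on the arrays of WT replicate 1, at 5.37 and 4.64, and of MT replicate 1, at 5.28, since the other 3 induced arrays had lower limits, 4.10 to 4.11, than the control level. With the mean of both probes in place of the brighter one, miR-29b-3p was at -0.67 in WT and -0.58 in MT against control. The limma adjusted p-values were 0.13 and 0.051. This mean takes in the dimmer probe at the floor of 4.11, with an SD of 0, in the WT and MT groups. Its size and spread are thus partly set by the floor, and it is no separate support from the dimmer probe.

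**Figure D3:**
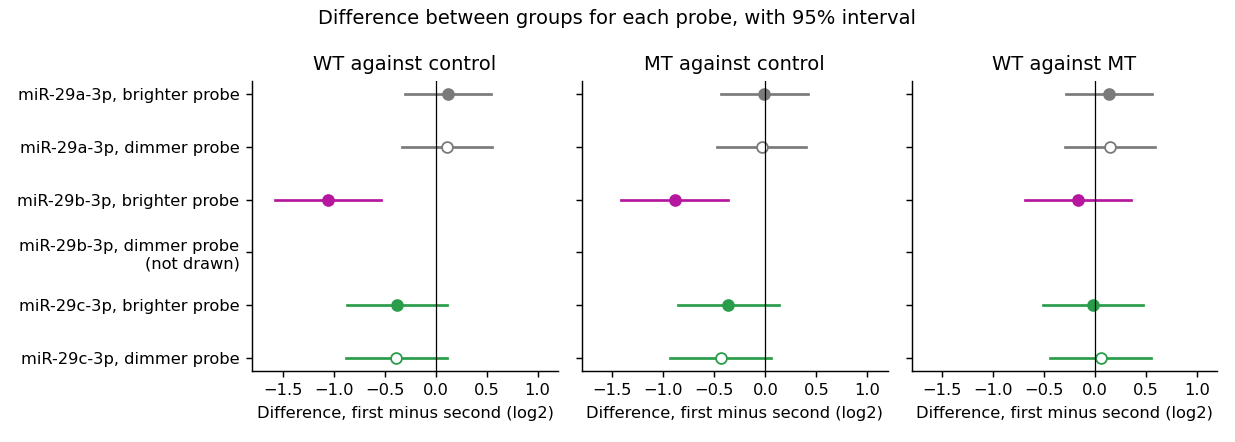
Difference between groups on the log2 scale for each probe of the members, with 95% intervals from the limma fit over 251 probes. The dimmer probe of miR-29b-3p lay at the floor in the WT and MT groups and is not drawn. The brighter miR-29b-3p probe, at -1.06 and -0.89 against control, is the one whose intervals leave out 0.

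Ratios between members on the same array do not depend on the factor by which that array is scaled. They can depend on the background correction. With normexp correction, which adds an offset of 50 intensity units, miR-29b-3p was at -0.43 in WT and -0.41 in MT against control. There miR-29a-3p was at 0.076 and -0.059, so these members lay closer together than in the reported values. The ratio of miR-29b-3p to miR-29a-3p, set to 100% at the mean of the control samples, was 38.4% and 50.5% in the WT replicates, 59.3% and 49.7% in the MT replicates, and 96.6% and 104% in the control replicates. The induced samples were all far below the control samples. The group ratio was 44.1% for WT and 54.3% for MT. An exact permutation test (two-sided) gave p = 0.33 for each, which is the smallest p that 2 samples against 2 can give.

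The ratio of miR-29c-3p to miR-29a-3p was 62.6% and 79.6% in the WT replicates, 83.7% and 73.3% in the MT replicates, and 88.8% and 113% in the control replicates. The induced samples were lower than the control samples, by a smaller distance than for miR-29b-3p, and the nearest values were 83.7% and 88.8%. The ratio of miR-29b-3p to miR-29c-3p was 61.4% and 63.4% in WT, 70.9% and 67.8% in MT, and 109% and 91.9% in control. Its group means were 62.4% for WT and 69.4% for MT. In each ratio the induced samples lay below the control samples. An exact permutation test (two-sided) gave p = 0.33 in each of these comparisons too, again the smallest that these sample numbers can give. The ratios are not independent, since any of them follows from the others and all use the same control samples. How often ratios of other miRNAs separate in this way was not tested.

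**Figure D4:**
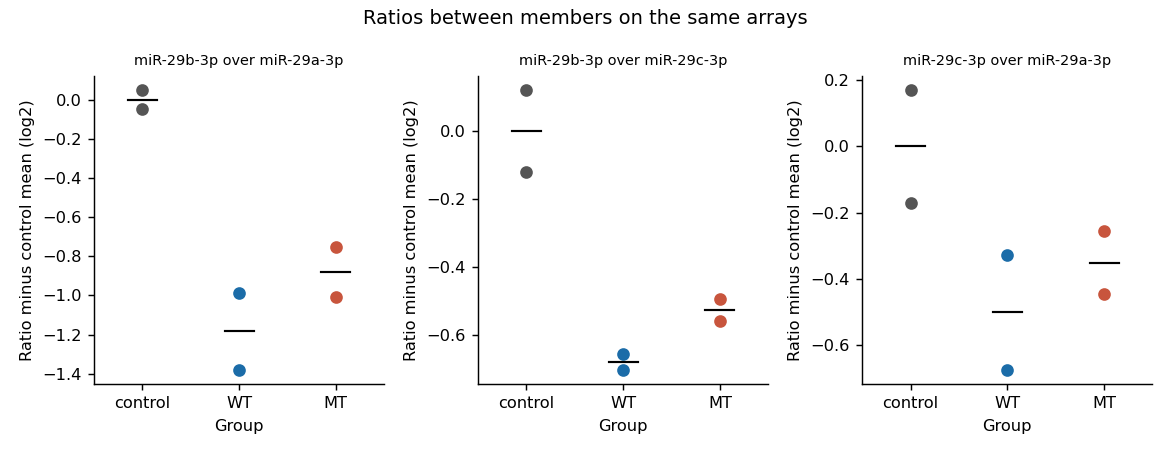
Ratio of 2 members within an RNA sample on the log2 scale, minus the mean of the control samples, with 1 point per RNA sample, black lines for group means and a separate y axis for each ratio. In all 3 ratios the WT and MT points lie below the control points, farthest for miR-29b-3p over miR-29a-3p, at -1.18 for WT and -0.88 for MT.

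Side of the slide moved with the values of miR-29b-3p and miR-29c-3p. WT replicate 1, on the left, was below WT replicate 2, on the right, by -0.62 for miR-29b-3p, -0.58 for miR-29c-3p and -0.23 for miR-29a-3p. Replicates that lay on the same side differed less for miR-29b-3p, by 0.18 in control and 0.091 in MT, but for miR-29a-3p the control replicates on the same side differed by 0.28, more than the WT replicates across sides. On the right side alone, WT replicate 2 stood at -0.75 from the control mean for miR-29b-3p, at -0.09 for miR-29c-3p and at 0.24 for miR-29a-3p. With the side as a term of the fit, chosen after seeing the data, miR-29b-3p was at -0.75 in WT and -0.27 in MT against control, with limma adjusted p-values of 0.47 and 0.89. In the same fit, miR-29c-3p was at -0.09 in WT and turned to 0.21 in MT. The MT and control arrays never share a side, so this value for MT rests on the difference between the WT replicates, and side and sample cannot be told apart there. On the left side alone, WT replicate 1 stood at -0.48 from the MT mean for miR-29b-3p.

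The opposite arms of the hairpins are other products of the same precursors. miR-29a-5p and miR-29c-5p were detected on 0 arrays. miR-29b-1-5p (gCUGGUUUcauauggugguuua, seed in capitals), cut from Mir29b-1 alone, was dim and was the arm through which that gene could be seen apart from Mir29b-2. Its brightest probe had intensities of 23.5, 23.3, 28.2 and 25.0 on the WT arrays, 21.7 and 20.4 in MT, and 25.8 and 27.2 in control, and was detected on 3 of 4 WT, 1 of 2 MT and 2 of 2 control arrays. The 2 arrays that missed it are those with the widest negative controls. After scaling, its difference from control was 0.41 for WT (95% interval -0.04 to 0.86, limma adjusted p = 0.20) and 0.33 for MT (95% interval -0.12 to 0.78, limma adjusted p = 0.22), where both intervals include 0. These values rest on single control samples, at scaled levels of 4.12 and 4.57: they were 0.18 and 0.11 without control replicate 1, and 0.63 and 0.55 without control replicate 2. The MT value turned to -0.19 with the percentile over all mouse probes and to -0.01 with quantile normalization.

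Across the 6 RNA samples, levels of miR-29b-3p and miR-29c-3p had a Pearson r of 0.90, whereas miR-29a-3p had -0.02 with miR-29b-3p and 0.13 with miR-29c-3p. These values describe 6 points that fall into 3 groups and share the array scaling. Among the 100 other miRNAs detected on all 8 arrays, those with the highest r to miR-29b-3p were miR-34c-5p (0.98), miR-20a-5p (0.95) and miR-148a-3p (0.93). For miR-29c-3p they were miR-199a-3p (0.97), miR-34b-5p (0.95) and miR-15a-5p (0.93), and for miR-29a-3p miR-24-2-5p (0.95), miR-30a-5p (0.80) and miR-720 (0.70). The miRNAs nearest to miR-29b-3p had smaller differences from control than it had: miR-34c-5p was at -0.39 in both induced groups, and miR-148a-3p at -0.56 in WT and -0.60 in MT.

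Other miRNAs described as acting on collagen, matrix or TGF-beta signalling genes were counted from a list of 20 names, of which 35 arms were on the array and 14 could be tested. With an unadjusted p under 0.05, 3 of 14 were lower and 2 of 14 were higher in WT against control, where 10.6% of all miRNAs tested were lower and 17.6% higher. The counts were 3 lower and 2 higher in MT against control, beside 12.7% and 26.8% of all. No member of the list passed the adjusted p. The median difference over the 14 was -0.08 in WT and -0.16 in MT, beside 0.12 and 0.13 over all miRNAs.

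The lower members were miR-21-5p, which is raised in many fibrotic tissues, at -0.89 in WT and -0.71 in MT, miR-26b-5p at -0.68 and -0.66, and miR-30e-5p at -0.55 and -0.67. The higher members were miR-214-3p, made from the same host transcript as miR-199a, at 0.49 and 0.78, and miR-199a-5p at 0.39 and 0.59. miR-30e-5p turned to 0.20 and 0.074 with normexp background correction, which adds an offset of 50 intensity units. miR-199a-5p turned to -0.13 in MT with the percentile over all mouse probes. miR-21-5p, miR-26b-5p and miR-214-3p kept their sign under all 3 of these other scalings (those and quantile normalization). The smallest values of miR-214-3p were 0.13 in WT and 0.067 in MT, with the percentile over all mouse probes. miR-29b-3p lay below each of the 5 in both comparisons with the reported scaling, but above miR-21-5p with quantile normalization (-1.04 and -0.96 against -1.27 and -1.22) and with normexp (-0.43 and -0.41 against -0.94 and -0.77).

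A summary value that Feature Extraction writes for each miRNA, the total gene signal, did not follow the probes of miR-29b-3p. It was 1169, 1224, 1632 and 59.7 on the WT arrays, 1023 and 1132 on the MT arrays, and 185 and 128 on the control arrays. The probe totals of miR-29b-3p in the same files add up to 45.2, 42.1, 75.3 and 59.7 in WT, 53.3 and 49.9 in MT, and 185 and 128 in control. On 3 of the 4 WT arrays and on both MT arrays the total gene signal was thus between 19.2 and 29.1 times what the member's own probes give, while on the other 3 arrays the values were equal. On those 5 arrays it lay within 7.54 units of the probe totals of miR-29a-3p and miR-29b-3p added together. For miR-29a-3p and miR-29c-3p the total gene signal equalled the sum of the probe totals on all 8 arrays. Over all mouse miRNAs, 344 of 1283 pairs of a miRNA and an array marked as detected had a total gene signal over 2 times the sum of their probe totals, in 99 miRNAs. With this summary in place of the probes, the difference of miR-29b-3p from control turned to 2.41 in WT and 3.33 in MT.

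**Figure D5:**
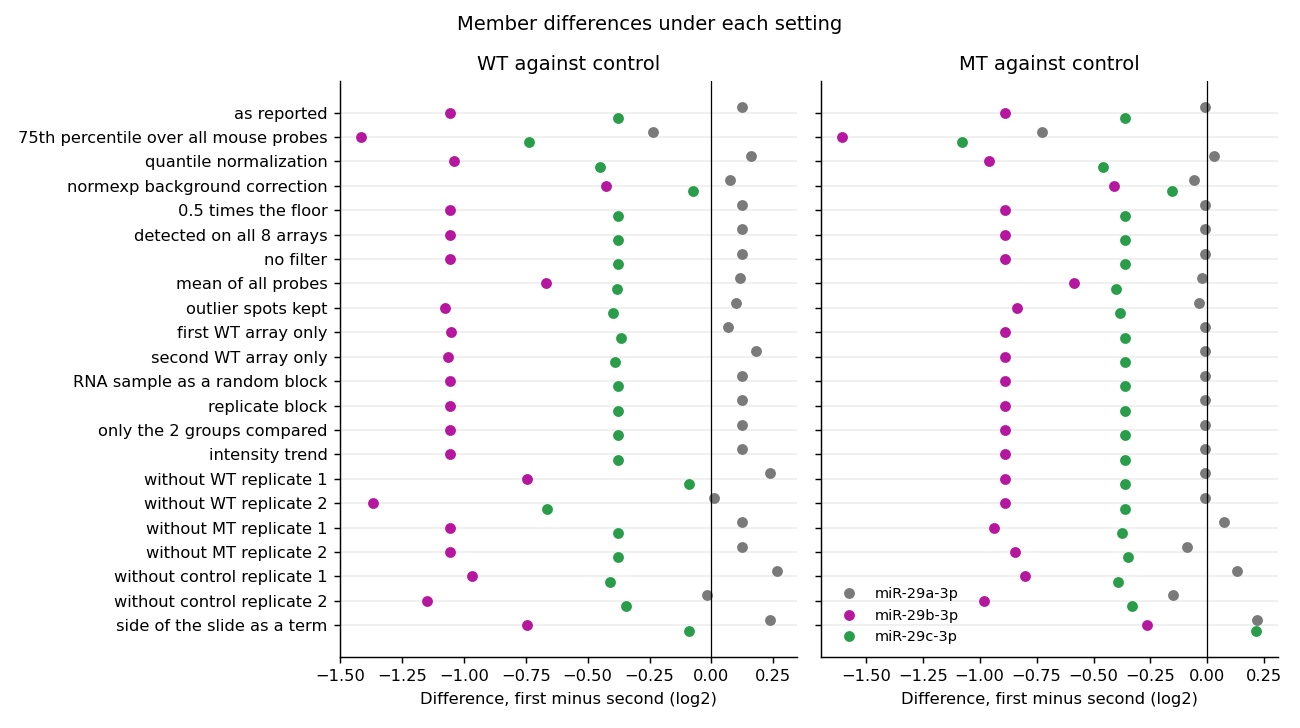
Difference from the control group on the log2 scale for the members under each setting, from the reported one at the top to the side of the slide at the bottom; the total gene signal, at 2.41 and 3.33 for miR-29b-3p, lies outside the axes and is left out. miR-29b-3p is below 0 in every setting drawn, between -1.42 and -0.43 for WT and between -1.61 and -0.27 for MT, whereas miR-29a-3p lies on both sides of 0.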

How the data were processed

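The authors deposited the Feature Extraction output of each of the 8 arrays, with background-subtracted spot intensity on a linear scale. A table of the whole series holds the same values to within 0.005 units, with column medians between -0.09 and 2.31, without normalization between arrays. The files name Feature Extraction version 10.7.1.1 and design build mm9, and the submitters' processing notes name version 9.1. How the authors normalized these arrays is not stated in any source used here. The labels also print 750 nM for the control group, whose induction is labelled none.

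Outlier spots were dropped and spots of a probe averaged. A probe counted as detected when over 50% of its spots were well above background. Each array's intensities were divided by their 75th percentile over the 174 probes that all arrays detected, a floor was set at 4.11 on the log2 scale (the median over arrays of the lowest detected signal), and log2 was taken. The probe with the highest mean stood for a miRNA. A single limma fit (version 3.58.1, R version 4.3.3) held the 3 groups, with Benjamini-Hochberg adjustment over 142 miRNAs or 251 probes and no replicate block, and differences are relative to the percentile. The number of arrays limits the precision. The fit was also run on simulated data with independent normal noise, without a floor, side of the slide or shared array effects. That simulation does not cover those features of these arrays. Figures were drawn with matplotlib version 3.10.9 in Python version 3.11.15.

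The members, the lists and the tests were chosen with earlier results of these data known. miRNAs named are the members, the opposite arms on the array, the 3 miRNAs with the highest r to each member, those sharing their seed, and those of the matrix list with an unadjusted p under 0.05. The alternatives changed the scaling, background correction, signal column, floor, filter, probes, outlier spots, technical arrays, blocks, samples fitted and intensity trend, and left out each replicate. The side of the slide and a crossed pairing were added after seeing the data. The row of the slide could not be told apart from the WT group.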

Additional observations from a re-analysis of the deposited data

How the results depend on the processing

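With 2 RNA samples per group, 6 in all, and 1 slide, small differences were not resolved, and values near the floor of the dimmer probes carry no order. miR-29b-3p stayed below control in 21 of 22 alternatives in each comparison, with adjusted p-values between 0.039 and 0.83 for WT and between 0.032 and 0.89 for MT. Not all alternatives are separate calculations. Leaving out 1 sample of the third group is the same fit as using only the groups compared. In WT against control, the side term is the same fit as leaving out WT replicate 1. After normexp background correction, which added an offset of 50 intensity units, miR-29b-3p was at -0.43 and -0.41. Its brighter probe had 53.7 to 99.8 units on the WT and MT arrays, and the effect of the offset was not tested. With the 75th percentile over all mouse probes miR-29b-3p was at -1.42 and -1.61. This scaling moved the median of all miRNAs to -0.19 and -0.52, and relative to that median miR-29b-3p was at -1.23 and -1.09. Without filter most spreads are 0, which makes that fit unreliable.

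The total gene signal turned miR-29b-3p to 2.41 (WT against control) and 3.33 (MT against control), miR-29c-3p to 0.098 (WT against MT), and miR-29b-1-5p to -1.60, -0.16 and -1.44 (WT against control, MT against control, WT against MT). For miR-29b-3p this column did not hold the signal of its own probes on 5 arrays. Nor did it for miR-29b-1-5p on arrays of every group. On the control arrays the column gave 2074 and 1315 for this arm, where its own probes add up to 12.8 and 13.2. Its turned values therefore do not describe its own probes. The percentile over all mouse probes turned miR-29a-3p to -0.23 in WT against control, miR-29b-1-5p to -0.19 in MT against control, and, in WT against MT, miR-29b-3p to 0.19 and miR-29c-3p to 0.34. Quantile normalization turned miR-29a-3p to 0.028 and miR-29b-1-5p to -0.0092 in MT against control, and miR-29c-3p to 0.0082 in WT against MT. In WT against MT, miR-29c-3p was also at 0.082 with normexp and at 0.019 with the mean of all probes. A term for slide side turned miR-29a-3p to 0.22 and miR-29c-3p to 0.21 in MT against control. Apart from the total gene signal, the cause of these turns was not tested.

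miR-29b-3p passed the threshold at its unchanged difference of -1.06 when only WT and control were fitted. In MT against control it passed at -0.89 over the 103 miRNAs detected on all arrays and with RNA sample as a random block. The shares of all miRNAs tested that passed in these fits were 0.704%, 28.2% and 7.75%, in that order. Leaving out 1 replicate gave -1.37 to -0.75 for miR-29b-3p in WT against control, -0.98 to -0.80 in MT against control and -0.48 to 0.14 in WT against MT. The same ranges were -0.67 to -0.09, -0.39 to -0.33 and -0.30 to 0.27 for miR-29c-3p, and -0.016 to 0.26, -0.15 to 0.13 and 0.019 to 0.25 for miR-29a-3p. A group left with 1 sample is assumed to vary like the others.

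From 0 in all 3 comparisons, the number of miRNAs past the adjusted p moved in WT against control to 3 with total gene signal, 22 with normexp, 1 with 0.5 times the floor and 1 with only the groups compared. In MT against control it moved to 3, 40 and 1 with the first 3 of these, 29 over the miRNAs detected on all arrays, 1 without filter and 11 with the random block. Leaving out 1 replicate gave 0 to 1 in WT against control, 0 to 30 in MT against control (30 without MT replicate 2) and 0 to 1 in WT against MT.

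Replicate numbers did not pair the samples. Deviations from group means correlated at 0.022 (WT and MT), 0.39 (WT and control) and -0.46 (MT and control). With the replicate block no call changed, at 0 in each comparison, and miR-29b-3p had adjusted p-values of 0.15 and 0.084. The crossed pairing of MT and control, added after seeing the data, also gave 0.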
